A study of Homo sapiens with 3 samples.

Results

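The small RNA machinery was followed through 10 genes on 3 Affymetrix arrays of LNCaP cells: DROSHA, DGCR8, XPO5, DICER1, TARBP2, AGO1, AGO2, AGO3, AGO4 and TNRC6A. A probe set, the group of probes that reads 1 transcript region, was taken where its only annotated gene symbol was 1 of these 10. This gave 31 of the 49388 probe sets, each treated on its own. LNCaP is an established human prostate cancer line that depends on androgen signalling. Per the labels' protocols, cells in phenol red-free medium with serum were lipid-transfected with 75 nM siRNA, and RNA was taken after 48 h, as the design text states. A negative control siRNA gave 1 array (LNCaP-Control). The 2 siRNAs directed at the HOXD-cluster long non-coding RNA HOXD-AS1 gave 1 array each, si-HOXD-AS1-1 (here siRNA 1) and its companion si-HOXD-AS1-2 (siRNA 2). The level of HOXD-AS1 was not analysed here, and a label gives the siRNA target positions on WDR5. Another label, not used here, gives an inhibition rate of 1 for the control, 0.23 for siRNA 1 and 0.25 for siRNA 2. Each group held 1 array, so there is no replicate spread, no test and no p-value, and every difference below is a difference between single libraries. The source labels name the cells LNCaP, LNCaP-Bic and LNCaP-AI in that order while the cell line label reads LNCaP throughout, so cell name and siRNA cannot be told apart. The series looked for genes that differ from the control with both siRNAs.

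In animal cells a microRNA begins as a hairpin in a long nuclear transcript. DROSHA and its RNA-binding partner DGCR8 cut the hairpin out, XPO5 exports it, and DICER1 with its partner TARBP2 trims it to a short duplex. One strand is loaded into an Argonaute protein (AGO1 to AGO4), which recruits a GW182 protein such as TNRC6A to repress matching mRNAs. A transfected siRNA is already a short duplex and enters at the Argonaute step, so all 3 libraries, the control included, come from cells whose Argonaute proteins had been supplied with an siRNA.

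The siRNAs are shown because they were the cargo of this machinery, with the 2-base 3′ overhang in capitals and each strand as the labels give it, 5′ to 3′.
control siRNA: uucuccgaacgugucacguTT
HOXD-AS1 siRNA 1: gaaagaaggaccaaaguaaUU
HOXD-AS1 siRNA 2: gcccuuucugaccugcuuaUU
The 19 bases before the overhang held 10 G or C in the control siRNA, 7 in siRNA 1 and 10 in siRNA 2. Bases 2 to 8 of these strands, the seed of a strand loaded into Argonaute, equalled those of 0 of the 2545 mature microRNA entries of RefSeq (GRCh38.p14). The same held for bases 2 to 8 of the complementary strand of all 3. The labels do not say which strand was meant to be loaded.

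Among the 10 genes, 2 contain microRNAs in their own gene span and on their own strand, by RefSeq coordinates. These sequences are shown, seed in capitals, since the host transcript of each is a substrate of the machinery it encodes.
hsa-miR-3173-5p in DICER1, chr14:95137961-95137982, minus strand: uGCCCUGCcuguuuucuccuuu
hsa-miR-3173-3p in DICER1, chr14:95137923-95137944, minus strand: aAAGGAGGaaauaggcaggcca
hsa-miR-3618 in DGCR8, chr22:20085797-20085818, plus strand: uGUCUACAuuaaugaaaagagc
hsa-miR-1306-5p in DGCR8, chr22:20086072-20086093, plus strand: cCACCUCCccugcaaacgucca
hsa-miR-1306-3p in DGCR8, chr22:20086112-20086129, plus strand: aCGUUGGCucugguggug
The 5 seeds differ from each other. The arrays read host transcripts and not mature microRNAs, so no level of these microRNAs is given.

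The 3 arrays were alike in signal, with median intensities of 25.7 to 26.1 and 49.9% to 50.1% of probe sets above the floor. The floor was the median of all values, an intensity of 25.96. Lower values were raised to it before differences were taken, and a probe set counted as measured where at least 1 array lay above it. Of the 31 probe sets 23 were measured, 22 of them on all 3 arrays. The remaining 1, a probe set of AGO3, passed through the siRNA arrays alone. In the whole series 23896 of the 44988 probe sets with 1 gene were measured. Luminal prostate genes were bright, with KLK2 and KLK3 at 5176 and 2602 in the control library. The 5 luminal genes with a probe set used here were all measured, while 0 of 3 leukocyte genes and 2 of 4 stromal genes were. Of 5 genes typical of androgen receptor-negative prostate lines, 2 were measured, VIM at 660.1, 593 and 735 and S100A2 close to the floor, while CAV1, CD44 and ANXA1 were below it on every array.

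DICER1, the RNase III enzyme that makes the final cut, was the member that stood farthest from the control, and it did so with siRNA 2. All 4 of its probe sets were 1.5-fold or more lower there, while with siRNA 1 none was. Probe set 11719525_s_at read 177 on the control array, 181 on the siRNA 1 array and 75.6 on the siRNA 2 array. The control and siRNA 1 were close to each other, and siRNA 2 was 2.34-fold below the control. Probe set 11757970_s_at read 209, 168 and 112 in the same order. Both siRNA libraries were below the control, siRNA 2 by 1.87-fold. The brightest DICER1 probe set, 11755211_a_at, read 303, 239 and 173, with siRNA 2 lower by 1.75-fold. The dimmest, 11740190_s_at, read 102, 90.6 and 62.7, with siRNA 2 lower by 1.62-fold. All 4 therefore gave the lowest value with siRNA 2, and 3 of the 4 placed siRNA 1 between the control and siRNA 2.

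**Figure D1:**
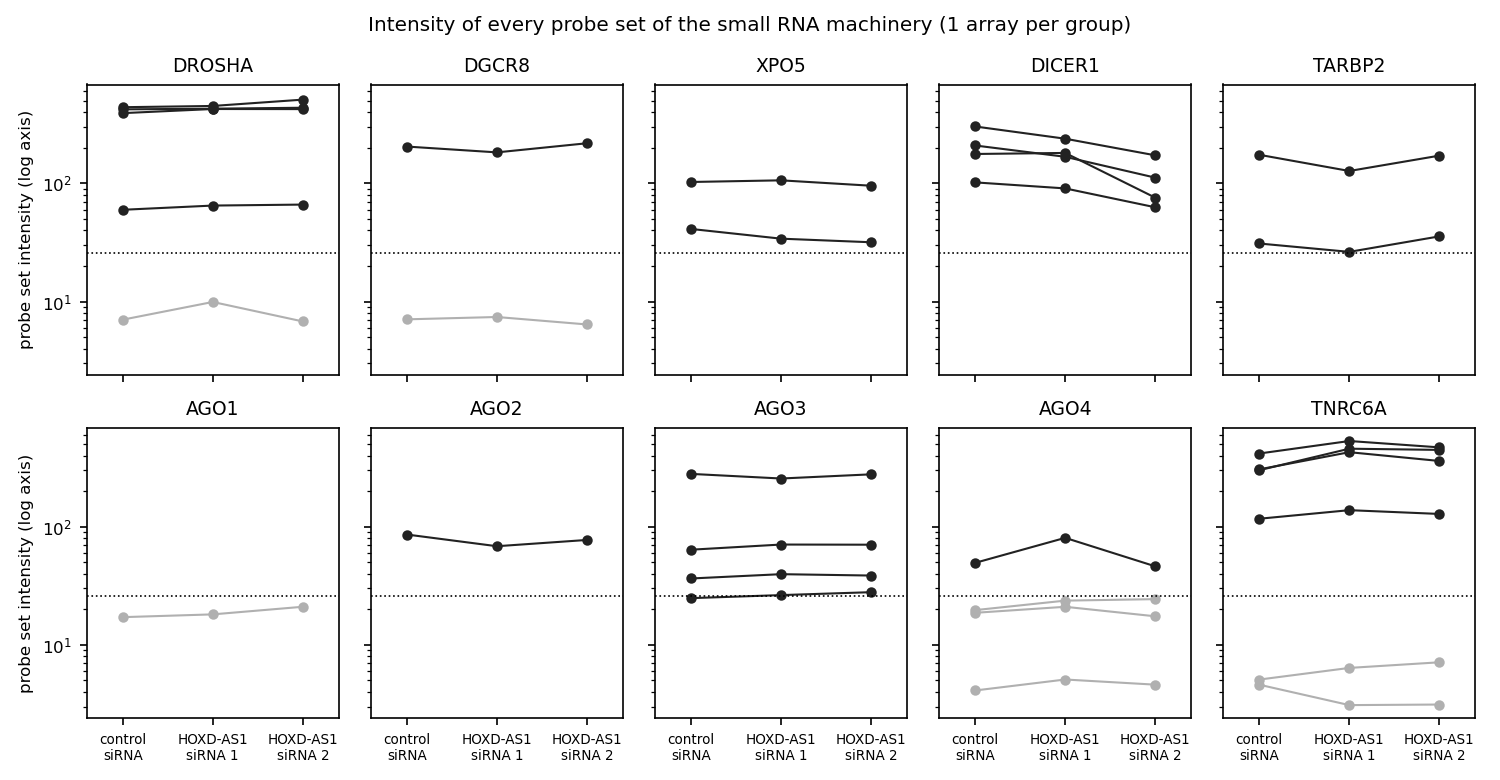
Intensity of all 31 probe sets of the 10 genes (y axis, log scale) on the control, siRNA 1 and siRNA 2 arrays (x axis). Each line is 1 probe set, grey where no array is above the floor of 25.96 (dotted line). The 4 DICER1 lines are lowest on the siRNA 2 array, and the 4 measured TNRC6A lines are lowest on the control array.

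On the log2 scale the DICER1 differences from the control were -1.23, -0.90, -0.81 and -0.70 with siRNA 2 (median -0.86). With siRNA 1 they were 0.03, -0.32, -0.34 and -0.17 in the same order of probe sets (median -0.24). Directly between the siRNA libraries, siRNA 2 was lower by -0.47 to -1.26, with a median of -0.56. Probe sets of a gene read the same RNA on the same arrays, so their spread describes the probe sets and not the variation between libraries. For the 1610 genes with 4 or more measured probe sets, the highest and lowest siRNA 2 difference lay 0.38 apart in the median gene and 0.72 apart at the 90th percentile. The 4 DICER1 probe sets lay 0.53 apart.

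Among all 23896 measured probe sets, 5.22% were 1.5-fold or more lower with siRNA 2 and 9.2% were that far in either direction. All 4 called probe sets of the machinery with siRNA 2 belonged to DICER1, and 0 of the other 19 reached 1.5-fold. The lowest DICER1 probe set was the 46th lowest of the 23896, and the other 3 stood at ranks 247, 431 and 706. Probe sets of 1 gene share their transcript and are not independent readings. Counted by gene, 10 of the 1610 genes with 4 or more measured probe sets (0.621%) had every one of them 1.5-fold or more lower with siRNA 2, and DICER1 was 1 of the 10. With siRNA 1 such genes made up 2.11%, without DICER1. Every probe set was lower with siRNA 2 than with siRNA 1 in 27.9% of the 1610 genes, DICER1 among them. At 2-fold, 1 DICER1 probe set was called with siRNA 2, against 0.644% of all measured probe sets lower by that much. Of the 4 DICER1 probe sets, 3 carry the suffix _s_at, which Affymetrix uses for probes shared by several transcripts, also of different genes. The other, 11755211_a_at, differed by -0.81, and its suffix _a_at is used for several transcripts of 1 gene. Probe sets of AGO3, DGCR8 and TNRC6A with the suffix _s_at have the same limit. Probe sets of DROSHA and AGO3 also carry the suffix _x_at, and cross-reaction of their probes with other sequences was not checked.

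**Figure D2:**
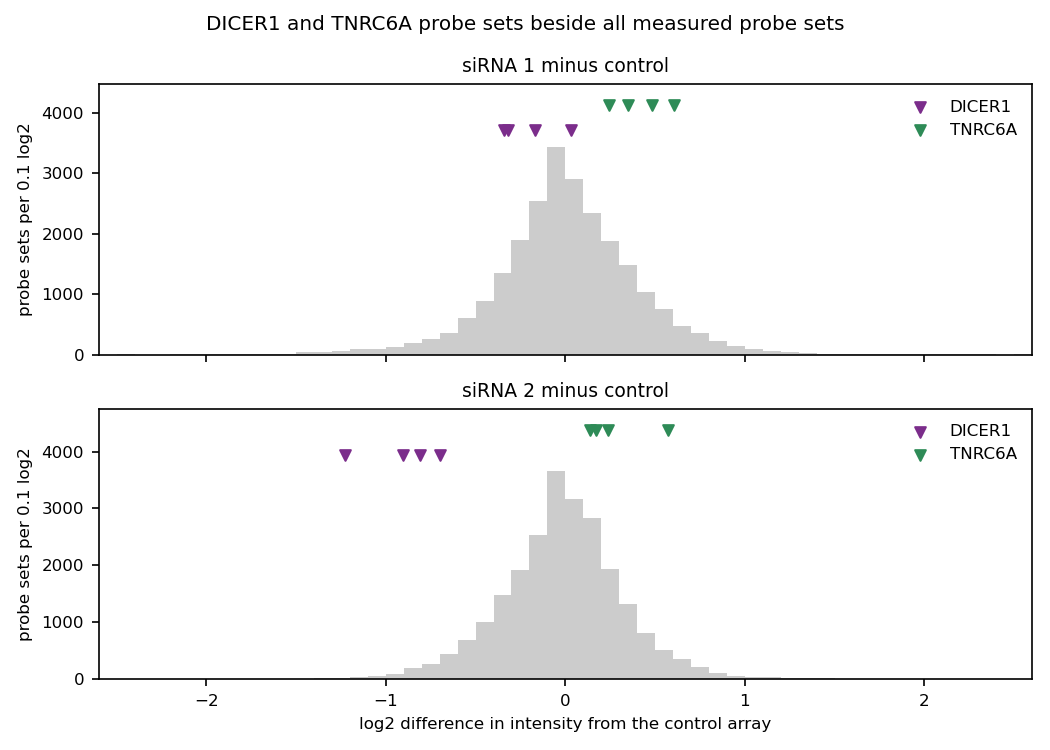
Histogram of log2 differences from the control array (x axis, bins of 0.1) over 23896 measured probe sets (y axis, number per bin), for siRNA 1 (top) and siRNA 2 (bottom), with triangles at the 4 measured probe sets of DICER1 and of TNRC6A. With siRNA 2 the DICER1 triangles lie between -1.23 and -0.70, and the TNRC6A triangles lie above 0 in both panels.

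TARBP2, the double-stranded RNA-binding partner of DICER1, went a different way. Its brighter probe set, 11721160_a_at, read 175, 127 and 172 on the control, siRNA 1 and siRNA 2 arrays. The siRNA 1 library was the low one, 1.37-fold below the control, and siRNA 2 was within 1.02-fold of it. The dimmer probe set, 11761120_at, read 31.0, 26.3 and 35.6, close to the floor with siRNA 1. Both were higher with siRNA 2 than with siRNA 1, by 0.43 and 0.44 on the log2 scale, while all DICER1 probe sets were lower there. PRKRA, the paralogue of TARBP2 that also binds DICER1, gave log2 differences of -0.11 and -0.21, and -0.17 and -0.34 in a dimmer probe set, for siRNA 1 and siRNA 2.

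The nuclear steps differed little from the control. DROSHA had 4 measured probe sets, and all of them were higher in both siRNA libraries by at most 1.16-fold. Of the 1610 genes with 4 or more measured probe sets, 11.9% had every one higher in both. The brightest, 11727107_a_at, read 441, 452 and 511, with siRNA 2 the highest, and the other 3 were 0.02 to 0.12 higher for siRNA 1 and 0.05 to 0.15 higher for siRNA 2. The remaining DROSHA probe set read 6.78 to 9.91, below the floor on every array. DGCR8, whose own transcript carries hairpins that DROSHA can cut, read 205, 183 and 218 in 11724330_s_at, a difference of -0.16 with siRNA 1 and 0.09 with siRNA 2. Its other probe set, at 6.40 to 7.40, was below the floor. The export receptor XPO5 read 103, 106 and 95.5 in 11729164_a_at and 41.1, 34.0 and 31.7 in 11729165_a_at. The dimmer of these was lower in both siRNA libraries (-0.27 and -0.37), and the brighter differed by 0.05 and -0.11. The probe sets of XPO5 thus agree in direction only for siRNA 2.

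Of the 10 Argonaute probe sets 6 were measured, with AGO1 and most of AGO4 below the floor. AGO2, the Argonaute that can cut a fully matched target RNA and thus the effector of siRNA cleavage, had 1 probe set. It read 85.8 on the control array, against 68.3 and 77.2 for siRNA 1 and siRNA 2. The control was the highest, with differences of -0.33 and -0.15. AGO3 was read by 4 probe sets, of which the brightest, 11739978_s_at, gave 279.6, 256 and 277. That probe set was slightly lower in both siRNA libraries (-0.13 and -0.01), whereas the other 3 were higher in both, at 0.02 to 0.15 for siRNA 1 and 0.08 to 0.14 for siRNA 2. Of these 3, 11760530_at was below the floor on the control array and measured through the siRNA arrays alone, so it could not come out lower. No AGO3 reading was 1.5-fold from the control.

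AGO4 had 4 probe sets with 1 measured. That probe set, 11759312_at, read 49.4, 80.4 and 46.2 on the control, siRNA 1 and siRNA 2 arrays. It was 1.63-fold higher with siRNA 1 and 1.07-fold lower with siRNA 2, so the siRNA libraries lay on opposite sides of the control. The 3 other AGO4 probe sets read 4.11 to 24.4 over the arrays, all below the floor, and give no fold. The single AGO1 probe set was also below the floor, at 17.1, 18.1 and 21.0. A probe set annotated to both AGO1 and AGO3, 11720866_a_at, which falls outside the selection and was picked with its values in view, read 233, 287 and 291. Its log2 differences were 0.30 and 0.32. The share of AGO1 and of AGO3 in it cannot be told apart. AGO4, AGO1 and AGO3 are neighbours in that order on chromosome 1 in RefSeq.

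TNRC6A, the GW182 scaffold that links Argonaute to the deadenylases, was higher in both siRNA libraries in all 4 of its measured probe sets. Probe set 11717817_a_at read 300.3 on the control array, against 457 and 446 on the siRNA arrays. The siRNA libraries were alike and stood 1.52-fold and 1.49-fold above the control. Probe set 11717818_at read 305, 427 and 359.7, and 11748942_s_at read 416, 531 and 469. In both of these the siRNA 1 library was the highest, 0.48 and 0.35 above the control on the log2 scale, with siRNA 2 at 0.24 and 0.17. Probe set 11755871_s_at differed least, with log2 differences of 0.24 and 0.13. The 2 further probe sets read 3.09 to 7.11, below the floor. Of all genes with 4 or more measured probe sets, 11.9% had every one higher in both siRNA libraries, so this pattern was shared by 191 of 1610 genes. Both differences share the control array.

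**Figure D3:**
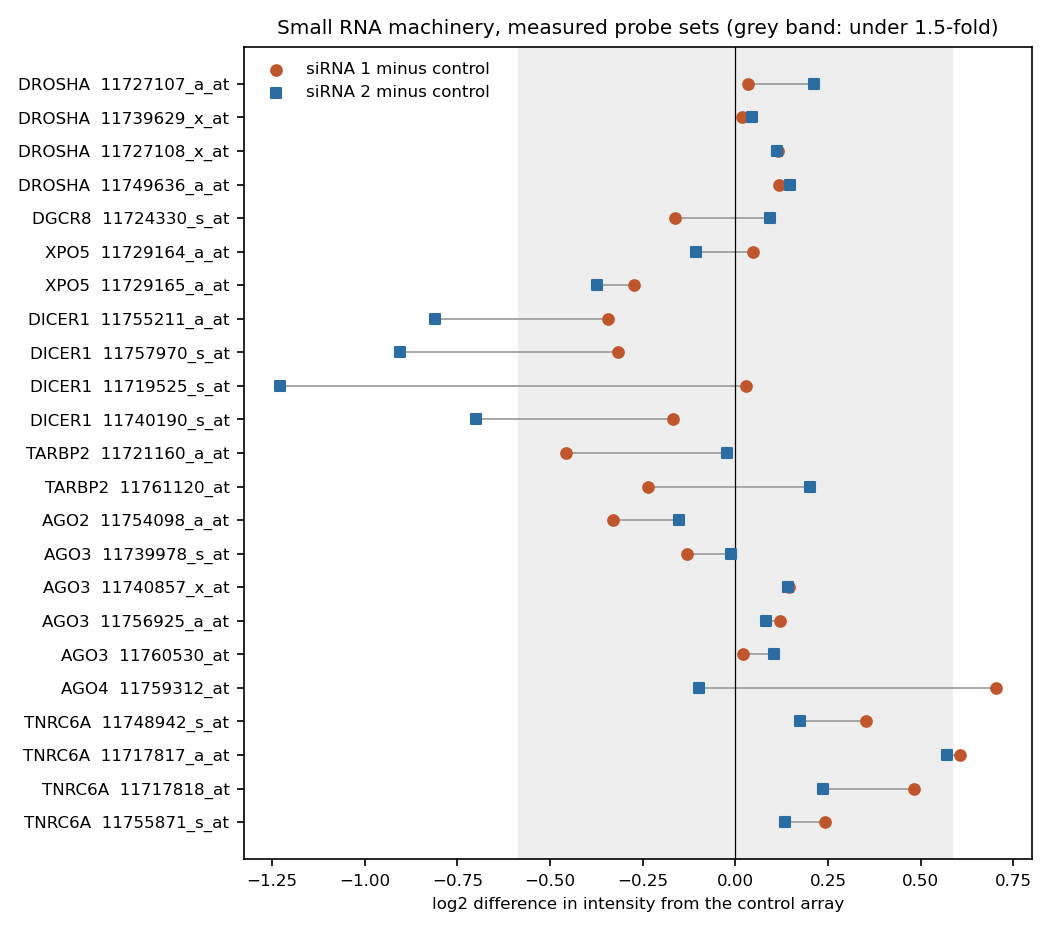
Log2 difference in intensity from the control array (x axis) for the 23 measured probe sets of the 9 genes with a reading above the floor (y axis), with siRNA 1 as circles and siRNA 2 as squares. The grey band marks differences under 1.5-fold. Outside it lie the 4 DICER1 squares, 1 AGO4 circle and 1 TNRC6A circle.

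With siRNA 1, 2 of the 23 measured probe sets were 1.5-fold or more from the control, 1 of AGO4 and 1 of TNRC6A, both higher. Over all measured probe sets 12.2% were that far in either direction and 6.57% were higher and 5.65% lower, and the share for the machinery, 8.7%, was near the background. With siRNA 2 the share was 17.4%, all of it DICER1 and lower, beside backgrounds of 3.98% higher and 5.22% lower. None of the 23 was 1.5-fold from the control in the same direction with both siRNAs, where the table as a whole had 1.59% higher and 1.55% lower in both. At a lower threshold, a log2 difference of 0.32, 2 were: 11717817_a_at of TNRC6A (higher) and 11755211_a_at of DICER1 (lower), against 6.76% and 7.32% of all measured probe sets. By sign alone 11 were higher and 7 lower in both libraries, where 31.8% and 33.7% of all measured probe sets were. The 11 came from DROSHA, AGO3 and TNRC6A alone, and probe sets of 1 gene are not independent readings. The AGO3 probe set that passed through the siRNA arrays alone could not come out lower. Without it 10 were higher in both. The median difference of the 23 was 0.03 with siRNA 1 and 0.08 with siRNA 2, beside 0.00 in each for all measured probe sets.

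The other genes of the small RNA pathway were taken from a list of 69 genes, of which 61 were measured in their brightest probe set. Their median difference was 0.03 with siRNA 1 and -0.03 with siRNA 2, beside 0.00 and 0.01 for all 11296 measured genes. With siRNA 1, 2 were 1.5-fold or more higher and 1 lower, and with siRNA 2, 1 higher and 1 lower. In all measured genes the shares were 6.93% and 6.15% with siRNA 1 and 4.75% and 4.67% with siRNA 2. None reached 1.5-fold in the same direction with both siRNAs, where 1.83% of all measured genes did upward and 1.52% downward. The germline Argonautes PIWIL1 to PIWIL4 and the let-7 regulators LIN28A and LIN28B were below the floor on every array.

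TNRC6B, the GW182 paralogue of TNRC6A, was lower with siRNA 2 and near the control with siRNA 1. Its brightest probe set read 272, 266 and 195 (-0.03 and -0.48). Of its 8 measured probe sets all were lower with siRNA 2, by -0.50 to -0.03, while with siRNA 1 they ran from -0.15 to 0.06. The third paralogue, TNRC6C, read 53.5, 54.6 and 51.2. TNRC6A and TNRC6B thus lay on opposite sides of the control with siRNA 2. None of the TNRC6B readings reached 1.5-fold.

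The silencing steps downstream of TNRC6A were followed through 21 deadenylation and decapping genes, all measured. Of these, 14.3% were 1.5-fold or more from the control with siRNA 1 and 4.76% with siRNA 2. Over all measured genes the shares were 13.1% and 9.42%. DCP2, the catalytic decapping enzyme, read 592, 475 and 328 in 1 probe set and 263, 211 and 132 in the other. Both were lowest with siRNA 2, at 1.80-fold and 1.99-fold below the control, with -0.32 in each for siRNA 1. Of the 61 pathway genes DCP2 lay nearest to the most displaced DICER1 probe set in the plane of both log2 differences, at a distance of 0.51, ahead of TNRC6B (0.75) and the deadenylase gene CNOT8 (0.82). This likeness rests on 3 arrays and on 11719525_s_at, the only DICER1 probe set not lower with siRNA 1 (0.03). The distance and the order of genes hold for that probe set alone. The brightest DICER1 probe set, 11755211_a_at, differed by -0.34 and -0.81, beside -0.32 and -0.85 for DCP2. CNOT6, a deadenylase subunit, went lower with siRNA 1, reading 323, 203 and 292, and its 4 measured probe sets lay at -0.78 to -0.60 there, against -0.27 to 0.20 for siRNA 2.

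DDX6, the helicase that joins the deadenylase complex to decapping, was higher in its brightest probe set, at 1283, 2239 and 1799 (0.80 and 0.49). Its next probe set was higher with siRNA 1 alone (0.73 and -0.09), and the dimmest was higher with both (0.23 and 0.17). All 3 were thus higher with siRNA 1, and 2 of 3 with siRNA 2. LSM14A, a partner of DDX6, differed by 0.62 and 0.01. The 5 dimmer ones lay at 0.13 to 0.76 for siRNA 1 and at -0.01 to 0.18 for siRNA 2.

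**Figure D4:**
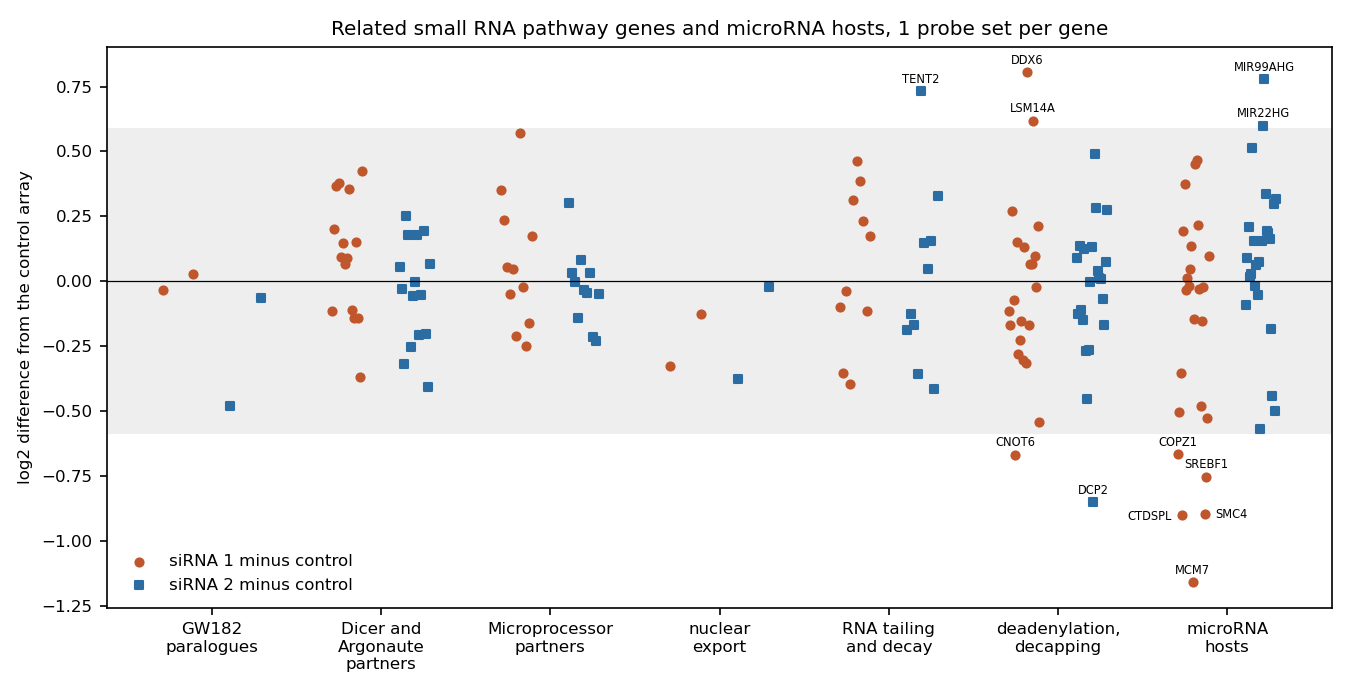
Log2 difference from the control array (y axis) of measured pathway genes and listed microRNA host genes by group (x axis), 1 probe set per gene, with siRNA 1 as circles and siRNA 2 as squares. Genes outside the grey band of 1.5-fold are named, among them DCP2 (-0.85 with siRNA 2), DDX6 (0.80 with siRNA 1) and MCM7 (-1.16 with siRNA 1).

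Partners of the upstream steps stayed within 1.5-fold in their brightest probe sets, though some dimmer ones did not. RAN, the GTPase that XPO5 needs to carry its cargo, read 4588, 3661 and 3532 (-0.33 and -0.38), and its 2 other measured probe sets were also lower in both libraries. XPO1, another export receptor, differed by -0.13 and -0.02. The Microprocessor helicases DDX5 and DDX17 were higher, at 0.23 and 0.03 for DDX5 and 0.35 and 0.30 for DDX17. A dim DDX5 probe set, 11733798_at, read 37.3, 82.7 and 28.1, a difference of 1.15 with siRNA 1 that its 4 brighter probe sets, at 0.23 to 0.37, did not share. SRRT and SRSF3, which assist primary transcript processing, were lower at -0.25 and -0.22 and at -0.16 and -0.23. The brightest SRSF3 probe set was the least displaced of 6, all lower in both libraries, with medians of -0.39 and -0.52 and a dim one past 1.5-fold with siRNA 2 (-0.65). NCBP2, a cap-binding subunit, differed by 0.57 and -0.04, but 2 of its 4 other probe sets were lower with siRNA 1.

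TSN, a subunit of the nuclease that removes the passenger strand of an siRNA, was lower in both libraries in all 4 probe sets, the brightest reading 178, 138 and 134 (-0.37 and -0.41). STIP1, a chaperone cofactor, differed by -0.14 and -0.20, and by -0.30 and -0.62 in its dimmer probe set. PTGES3, another chaperone cofactor, differed by -0.14 and -0.05 in its brightest probe set. All 4 of its probe sets were lower in both libraries, and the dimmest, 11751818_x_at, read 215, 120.3 and 114 (-0.84 and -0.91), the one probe set of the 61 genes that was past 1.5-fold in the same direction with both siRNAs. It was named after its values were seen, and cross-reaction of its probes with other sequences was not checked. MOV10 and FXR1, RNA-binding partners of Argonaute, were higher at 0.35 and 0.18 and at 0.38 and 0.25. ADAR, which edits double-stranded RNA, differed by -0.11 and 0.05. Of the genes that tail or degrade small RNAs, TENT2 read 105, 131 and 175 (0.31 and 0.73) with 3 other probe sets at 0.31 to 0.68 with siRNA 2. TUT4, a uridylyl transferase of let-7 precursors, differed by 0.46 and 0.15. The exonuclease gene XRN2 differed by -0.11 and -0.41, although 2 of its 6 probe sets were higher with siRNA 2, and PNPT1 by -0.40 and -0.36.

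The input to the machinery was described through a list of 32 genes taken as microRNA hosts, of which 24 were measured. A lookup by gene symbol and RefSeq coordinates returned no microRNA entry on the own strand of CTDSPL, IARS2, LARP7 and MIR143HG. An empty lookup does not show that these genes hold no microRNA. CTDSPL, IARS2 and LARP7 were measured and stay in the counts and medians of the 24 listed hosts. For the hosts with the 2 highest and 2 lowest mean differences, a selection of the microRNAs they contain is shown, seed in capitals, from RefSeq (GRCh38.p14). Further arms and further microRNAs of these hosts are not shown.
hsa-miR-106b-5p in MCM7, chr7:100094043-100094063, minus strand: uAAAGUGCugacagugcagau
hsa-miR-93-5p in MCM7, chr7:100093815-100093837, minus strand: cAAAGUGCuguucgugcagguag
hsa-miR-25-3p in MCM7, chr7:100093571-100093592, minus strand: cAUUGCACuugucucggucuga
hsa-miR-15b-5p in SMC4, chr3:160404607-160404628, plus strand: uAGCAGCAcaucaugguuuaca
hsa-miR-16-5p in SMC4, chr3:160404754-160404775, plus strand: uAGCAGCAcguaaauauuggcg
hsa-let-7c-5p in MIR99AHG, chr21:16539838-16539859, plus strand: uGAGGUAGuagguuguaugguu
hsa-miR-22-3p in MIR22HG, chr17:1713914-1713935, minus strand: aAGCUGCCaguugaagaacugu
The MCM7 microRNAs miR-106b and miR-93 share 1 seed, and the SMC4 microRNAs miR-15b and miR-16 share another.

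MCM7, a helicase subunit of DNA replication, read 2288, 1025 and 1544 (-1.16 and -0.57), and all 4 of its measured probe sets were lower in both libraries. SMC4, a condensin subunit, read 875, 470.0 and 644 (-0.90 and -0.44), again lower in all 4 probe sets. Both are genes of dividing cells. The 12 cell division genes taken for comparison were all lower in both libraries, with medians of -1.43 with siRNA 1 and -0.70 with siRNA 2. That group was thus lower with siRNA 1 than with siRNA 2, the reverse of DICER1, and its part in the values of the machinery was not tested.

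Of the non-coding hosts, 3 were measured. MIR22HG read 120.3, 165 and 182 (0.45 and 0.60), with all 4 probe sets higher in both libraries. MIR99AHG, the host of let-7c, read 43.3, 59.8 and 74.3 (0.47 and 0.78) in its single measured probe set. DLEU2, named outside the rule for naming genes, holds the same miR-16 sequence as SMC4, and miR-15a with the same seed. It read 63.2, 72.3 and 64.5 and stayed near the control (0.19 and 0.03). In all, 5 of the 24 listed hosts were 1.5-fold or more lower with siRNA 1 and 0 higher, and with siRNA 2, 0 were lower and 2 higher. Over all measured genes 6.15% were lower and 6.93% higher with siRNA 1, and 4.67% lower and 4.75% higher with siRNA 2. The 5 lower hosts were MCM7, SMC4, the phosphatase gene CTDSPL, the lipid regulator SREBF1 and the coat protein gene COPZ1. CTDSPL, for which the lookup returned no microRNA entry, read 324, 173 and 327, lower with siRNA 1 in all 3 probe sets. SREBF1 (-0.75 and 0.30) and COPZ1 (-0.67 and -0.09) each had a dimmer probe set that did not share the siRNA 1 difference (0.03 in each). CTDSPL, SREBF1 and COPZ1 were named after their values were seen. The medians over the 24 hosts were -0.03 and 0.12. The let-7 and miR-103/107 families are known to repress DICER1. HUWE1, whose span holds let-7f and miR-98 with the same seed as let-7c, read 361, 356 and 376, near the control at -0.02 and 0.06. It too was chosen after its values were seen. The miR-103/107 seed, shown because of that link, is shared by microRNAs within the pantothenate kinase genes PANK1, PANK2 and PANK3.
hsa-miR-107 in PANK1, chr10:89592756-89592778, minus strand: aGCAGCAUuguacagggcuauca
hsa-miR-103a-3p in PANK2, chr20:3917541-3917563, plus strand: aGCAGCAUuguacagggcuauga
The PANK hosts were chosen after their values were seen. PANK1 differed by -0.03 and 0.20, PANK2 by -0.48 and 0.19 and PANK3 by -0.15 and 0.16, all under 1.5-fold. A dim PANK2 probe set went the other way with siRNA 1, at 0.51. The mature microRNAs were not measured, and any link to the DICER1 values was not tested.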

How the data were processed

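Total RNA of 3 LNCaP libraries was amplified to biotin-tagged cRNA and hybridised to Affymetrix arrays, per the labels' protocols. The authors deposited linear intensities per probe set. GCOS 1.4 is named in the submitters' processing notes. How background, summary and normalization were handled is not given in the sources used here. Since the sorted log2 columns differed by at most 0.098, the authors' values were used without rescaling. A shift of most transcripts in 1 direction would not be seen if the columns had been equalised before deposit.

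Intensities were floored at their overall median (25.96) and put on the log2 scale with Python 3.11.15, numpy 2.4.6 and pandas 2.3.3. Differences between arrays were counted at 1.5-fold. The step was checked on simulated data. Gene symbols came from the platform annotation: 44988 probe sets had 1 gene, 1831 several and 2569 were not listed. All 10 genes matched RefSeq by gene identifier. Every probe set of the 10 genes is reported. Of the pathway and host lists, the rule was to name genes 1.5-fold from the control in both libraries and the 2 highest and 2 lowest per group. It added 9 fixed paralogues and partners, and the 3 nearest to the most displaced member. Other listed genes were also named outside this rule, among them DLEU2, PTGES3, CTDSPL, SREBF1, COPZ1, HUWE1 and the PANK genes. For these lists 1 probe set per gene, the brightest, was used. The members and lists were chosen with earlier results of these data known. The alternatives tried were other floors, quantile normalization, median centring, plain probe sets, other thresholds and other summaries per gene. Precision is limited by there being 1 array per group.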

Additional observations from a re-analysis of the deposited data

How the results depend on the processing

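Each array is the only one of its group, so none could be left out. No paired analysis was possible because each group held 1 array and shared no replicates with another. The 46 single probe set differences each moved by less than 0.1 with no floor, with the floor at the 25th percentile, under quantile normalization and under median centring. A floor at the 75th percentile moved 2 of 26 by more and reversed 0: DICER1 11719525_s_at with siRNA 2 became -0.55, under 1.5-fold, because its siRNA 2 reading lies below that floor, and DICER1 11757970_s_at became -0.79. The count of probe sets 1.5-fold from the control with siRNA 1, 2 in the main setting, was 1 under the 75th percentile floor, 1 with 1 probe set per gene, 0 with the mean of all probe sets of a gene, 0 at 2-fold and 7 at the lower threshold (log2 difference of 0.32). With siRNA 2 the count of 4 was 2 under the 75th percentile floor and 1 with plain probe sets, with 1 probe set per gene, with the mean of all probe sets of a gene and at 2-fold. The settings per gene count 9 genes and the plain setting 13 probe sets in place of 23, and what each change of unit and of summary contributed was not tested. At the lower threshold 2 were called in both libraries where none was at 1.5-fold. The median difference of the machinery was -0.13 with siRNA 1 and -0.024 with siRNA 2 for 1 probe set per gene, and -0.082 with siRNA 1 for the mean of all probe sets of a gene, below 0 where the main medians of 0.03 and 0.08 were above it. The cause was not tested.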
